A study of Homo sapiens with 4 samples.

Results

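The transcripts described here are 10 genes of the immediate early response: the AP-1 subunits JUN, JUNB, JUND, FOS, FOSB, FOSL1 and FOSL2, the zinc finger factors EGR1 and EGR3, and the nuclear protein gene IER2. They were chosen by name, with earlier results of these data known. Each was read from every probe set annotated to that gene alone, 22 probe sets of 41091 with 1 gene symbol. The brightest probe set stood for the gene, so the comparison covers 10 genes of 19775, and all 10 were measured. RNA came from AGS cells, an established line from a human gastric adenocarcinoma, on 4 expression arrays. The groups were PRMT6-knockout AGS cells (2 arrays) and AGS cells with wild-type PRMT6, named control (2 arrays). PRMT6 is an arginine methyltransferase that modifies histone H3. Per the labels, a guide against PRMT6 was delivered with Cas9 in the lentiCRISPR v2 vector, puromycin selected the infected cells, and limiting dilution gave the knockout clones. All cells grew in RPMI1640 medium with fetal bovine serum. The labels name no starvation, growth factor or other stimulus. Nor do they name the clone behind each knockout array or the vector of the control cells. Loss of PRMT6 therefore cannot be told apart here from clone, vector or selection. Whether the arrays of a group came from separate cultures is not stated either. P-values thus measure only the spread between these arrays, which may be technical.

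Immediate early genes are transcribed within minutes of a signal, without new protein synthesis, and their RNAs are short-lived. Serum and growth factors reach them through RAS, the ERK kinases and serum response factor, and stress reaches them through the JNK and p38 kinases and CREB/ATF factors. JUN and FOS proteins carry a basic region and a leucine zipper. They bind DNA as the dimer AP-1, in which a FOS protein needs a JUN partner. EGR proteins bind GC-rich sites through zinc fingers. In epithelial tumours AP-1 is known for driving invasion and protease genes.

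The arrays resembled each other closely. Across probe sets, which are not independent, Pearson's r was 0.996 within the knockout pair, 0.995 within the control pair and 0.981 to 0.984 across the groups. The PRMT6 probe set stood at 7.79 and 7.63 on the knockout arrays and at 8.03 and 8.11 on the control arrays (log2 intensity). It fell by 0.36 on the log2 scale (adjusted p = 0.043, limma), a call lost whenever 1 array was left out. With all 4 arrays it was also lost on gene-specific probe sets (adjusted p = 0.052 in limma). The same held with every probe set tested (0.062) and with a block for replicate number (0.076). Where the probe set lies relative to the edit was not analysed here, so it is no check of the labels. The epithelial markers EPCAM and KRT18 were bright on all arrays, EPCAM at 12.53 and 12.38 in knockout cells and at 12.51 and 12.57 in control cells. Of all genes 12.4% rose and 11.5% fell, the background for the counts that follow. The 10 genes and the lists were chosen with earlier results known, so setting their counts beside these shares is no test. Of 8 epithelial markers 4 rose and 1 fell, with a summed level of 14.85 and 14.89 in knockout cells and 14.70 and 14.66 in control cells (log2 of summed intensities). Of 10 fibroblast markers 4 rose and 1 fell (sums of 10.63 and 10.63 in knockout cells, 10.07 and 10.09 in control cells). The brightest that rose was COL1A1, at 10.18 and 10.09 in knockout cells against 8.55 and 8.60 in control cells (0.72 as the mean over probe sets). PDGFRA fell, at 8.11 and 8.41 against 9.12 and 9.11. The fibroblast sums lie mostly with COL1A1 and PDGFRA. LUM, COL3A1 and FAP also rose, but read at most 4.09 on any array. That is below the median of all probe sets (5.01 to 5.02), and they were not shown to exceed background. As the mean over probe sets the falls of PDGFRA and the epithelial CLDN4 did not pass in limma (adjusted p = 0.24 and 0.081). On gene-specific probe sets the rises of LUM and COL3A1 did not pass (adjusted p = 0.66 and 0.53). None of 7 immune markers passed the test, although PTPRC rose on its gene-specific probe set (0.62, adjusted p = 0.020). Their sums (12.39 and 11.37 in knockout cells, 12.80 and 12.91 in control cells) lie mostly with LYZ, at 12.36 and 11.30 in knockout cells and 12.77 and 12.88 in control cells, a lysozyme that gastric epithelium also makes. LYZ (adjusted p = 0.096) was called lower among brighter genes only, with the intensity trend and under reference gene scaling (0.030 in each), and without knockout 1 (0.037). None of 5 endothelial markers passed it either (sums of 7.06 and 7.13 in knockout cells, 6.89 and 7.09 in control cells). Log2 intensities have no 0, so absence of a marker cannot be read from them, and the part of other cells in the results was not tested.

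All 10 genes were lower on both knockout arrays than on both control arrays. By limma's test over all genes 9 of the 10 fell and none rose, at an adjusted p below 0.05, and JUNB missed that threshold. Of all 19775 genes, 24.0% passed the test in either direction and 11.5% fell. Groups did not overlap for 58.2% of all genes, with knockout lower for 29.1%. The median difference of the 10 genes, knockout minus control, was -0.54 on the log2 scale, beside -0.01 over all genes. The largest difference was that of FOSB, 3.65-fold lower, and the smallest that of FOSL2, 1.29-fold lower. In bulk RNA, fewer cells making a transcript and less transcript per cell cannot be told apart.

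**Figure D1:**
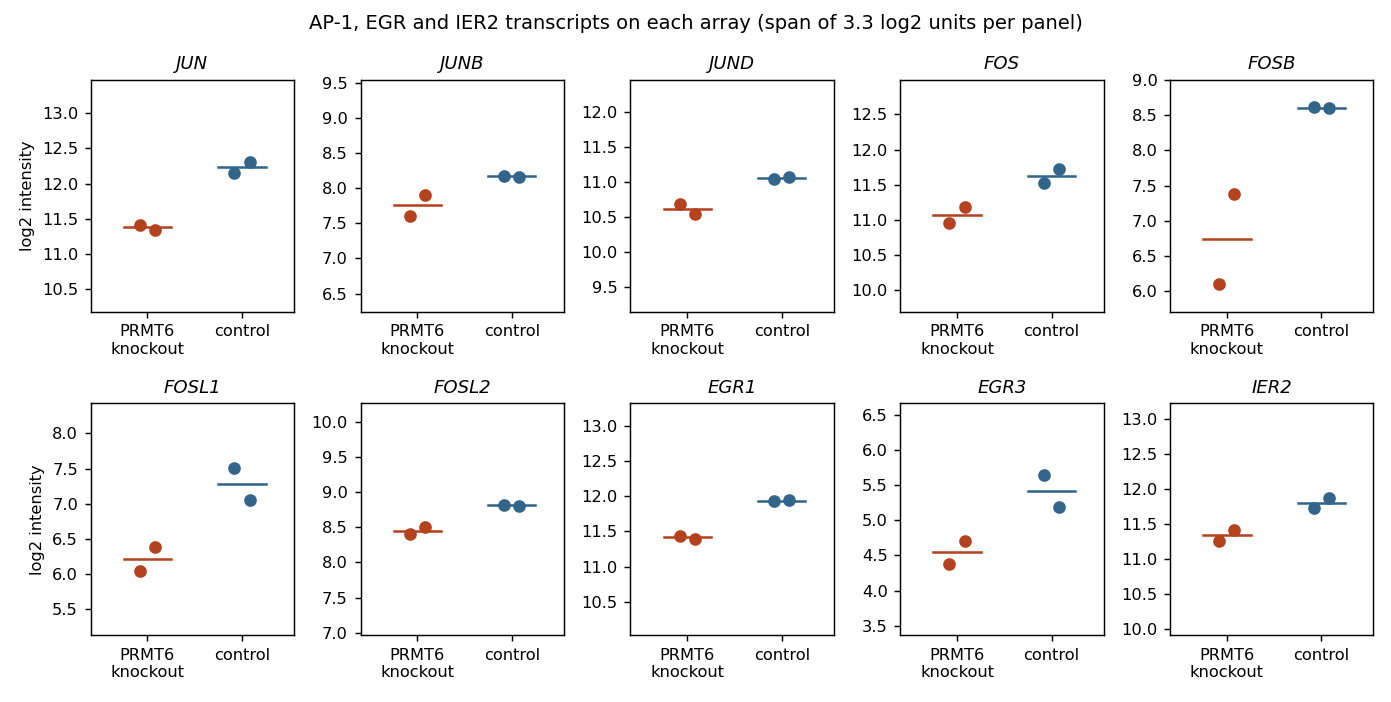
Log2 intensity (vertical axis) of the brightest probe set of each gene on each array, PRMT6-knockout arrays at the left of a panel and control arrays at the right, with replicate 1 left of replicate 2; points are arrays and horizontal lines group means. In each of the 10 panels both knockout points lie below both control points, with the widest spread between the FOSB knockout arrays (6.10 and 7.38).

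JUN can pair with itself or with FOS proteins and is the central AP-1 subunit. Its log2 intensity was 11.41 and 11.35 on the knockout arrays, against 12.15 and 12.31 on the control arrays. The knockout arrays lay close together and 0.74 below the lower control array. JUN fell by 0.85 (SE 0.09, 95% confidence interval -1.08 to -0.62), or 1.80-fold, with the lowest adjusted p of the 10 genes in limma (0.0035). The chosen probe set carries a suffix that marks possible cross-hybridization, but the other 3 JUN probe sets fell by 1.27, 1.33 and 1.02. The one without such a suffix read 8.60 and 8.45 in knockout cells and 9.28 and 9.80 in control cells.

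JUNB, which activates transcription more weakly than JUN at many sites, read 7.61 and 7.90 in knockout cells, against 8.17 and 8.16 in control cells. The groups did not overlap, but the knockout arrays differed by 0.29, and the difference of -0.41 (SE 0.12, interval -0.71 to -0.12) did not pass the test (adjusted p = 0.060). JUND, the JUN protein that is made steadily in resting cells, read 10.69 and 10.54 in knockout cells, against 11.04 and 11.06 in control cells. It fell by 0.44 (SE 0.09, adjusted p = 0.021), or 1.35-fold. Its 3 dimmer probe sets did not pass the test, with differences of -0.32, -0.39 and -0.08.

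FOS, the classic serum-induced subunit, read 10.96 and 11.18 in knockout cells, against 11.52 and 11.73 in control cells. It fell by 0.55 (SE 0.12, adjusted p = 0.026), or 1.46-fold, and the gap between the groups was 0.34, beside differences of 0.22 and 0.20 within them. FOSB read 6.10 and 7.38 in knockout cells, against 8.62 and 8.60 in control cells. It fell by 1.87 (SE 0.40, interval -2.89 to -0.85; adjusted p = 0.027). The FOSB control arrays lay close together, whereas its knockout arrays were 1.29 apart, a spread that 0.025% of all genes reached or exceeded between these 2 arrays. The size of the FOSB fall therefore rests on the choice of knockout array: it was -1.23 without knockout 1 and -2.51 without knockout 2.

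FOSL1 and FOSL2 encode FRA1 and FRA2, FOS relatives that lack the strong activation domain of FOS and tend to persist longer after a signal. FOSL1 read 6.04 and 6.38 in knockout cells, against 7.51 and 7.06 in control cells. It fell by 1.08 (SE 0.19, adjusted p = 0.014), or 2.11-fold, with both groups spread by more than 0.3. FOSL2 read 8.40 and 8.50 in knockout cells, against 8.82 and 8.81 in control cells. Its fall of 0.36 (SE 0.08, adjusted p = 0.029) depended on the probe set. A second FOSL2 probe set fell by 0.80 (adjusted p = 0.0052 over all probe sets), while 3 dimmer ones, with groups that overlapped, gave 0.17, 0.11 and -0.30 and did not pass the test. With the mean of all 5 probe sets the call was lost (-0.24, adjusted p = 0.19).

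EGR1, a zinc finger factor induced by growth factors and stress, read 11.44 and 11.39 in knockout cells, against 11.93 and 11.95 in control cells. Arrays of a group agreed within 0.05. EGR1 fell by 0.52 (SE 0.08, adjusted p = 0.0080), or 1.44-fold, and its other probe sets fell by 0.64 and 0.70. EGR3, a related factor that EGR1 can induce, read 4.38 and 4.70 in knockout cells, against 5.64 and 5.19 in control cells. It fell by 0.87 (SE 0.19, adjusted p = 0.026). Its values lie near the median of all probe sets on each array (5.01 to 5.02), and no detection calls were used here to show that they exceeded background. IER2, a small nuclear protein gene switched on with FOS, read 11.26 and 11.42 in knockout cells, against 11.74 and 11.87 in control cells, and fell by 0.46 (SE 0.10, adjusted p = 0.026).

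In order of size the differences were those of FOSB, FOSL1, EGR3, JUN, FOS, EGR1, IER2, JUND, JUNB and FOSL2. The 95% confidence intervals of neighbours in this order overlapped, and no test set one gene's difference against another's. On 7 of the 10 genes knockout 2 was higher than knockout 1, as it was on 57.4% of all genes. JUN, JUND and EGR1 went the other way. Between the control arrays 5 genes were higher on each, beside 51.8% of all genes that were higher on control 2. Levels of different probe sets are not comparable, so the genes were not ranked by abundance.

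**Figure D2:**
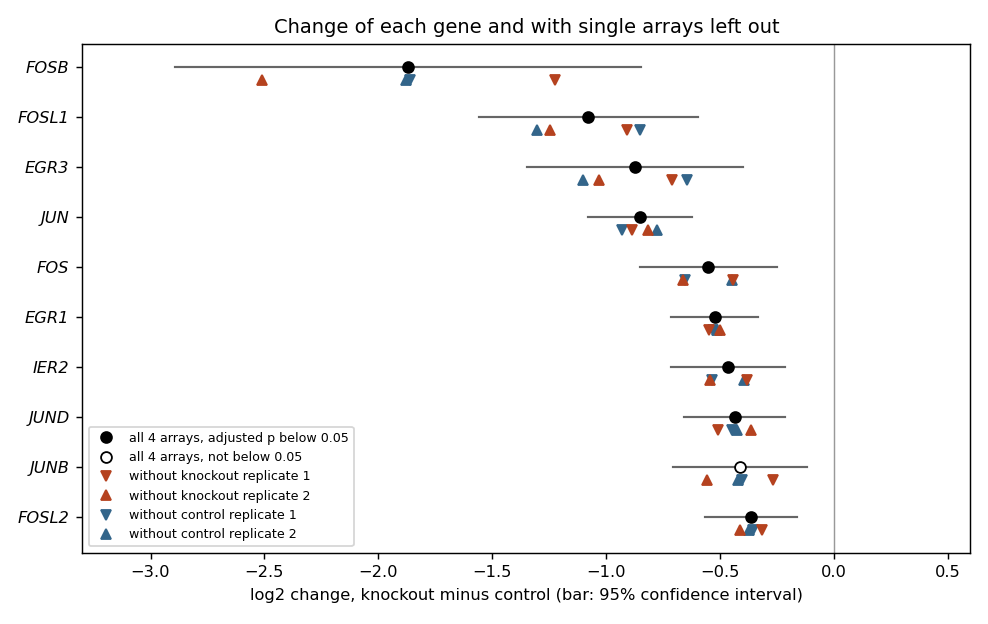
Log2 difference, knockout minus control (horizontal axis), of the 10 genes in order of size; circles are values from all 4 arrays with 95% confidence intervals, and triangles are the values with 1 array left out. Every value lies below 0, from -2.51 for FOSB without knockout 2 to -0.27 for JUNB without knockout 1; the open circle is JUNB.

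The directions held with any single array left out, as they must where groups do not overlap, but most calls did not. Without control 1, JUN and EGR1 passed the test (2 of 10). Without control 2, FOSL1, JUN and EGR3 did (3 of 10). Without knockout 1, and again without knockout 2, only FOSB passed (1 of 10), where the single knockout array is assumed to vary like the controls. FOS, FOSL2, JUND and IER2 passed in none of these 4 fits, and JUNB, not called with all arrays, in none either. The same fits called fewer of all genes, 2629 without control 1, 2226 without control 2, 570 without knockout 1 and 508 without knockout 2, against 4740 with all arrays. Scaling the arrays to equal means of 10 measured reference genes moved the median of all genes to -0.26, and rises then made up 14.5% of calls, against 51.9% on the deposited scale. Such scaling adds 1 constant to each array, so it moves the difference of every gene alike. All 10 genes then fell, with a median of -0.79, beside 7280 of all 19775 genes that fell. On the deposited scale 5 of the 10 reference genes rose and none fell.

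Over all 22 probe sets of the 10 genes, 15 fell and none rose (adjusted over all 41091 probe sets, of which 8.89% fell). Of the 12 that were not the brightest, 6 fell, namely 3 of JUN, 2 of EGR1 and 1 of FOSL2. The 2 probe sets with a positive difference both belong to FOSL2. Where a gene had several probe sets that passed, the brightest gave the smallest fall, as for JUN, EGR1 and FOSL2.

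**Figure D3:**
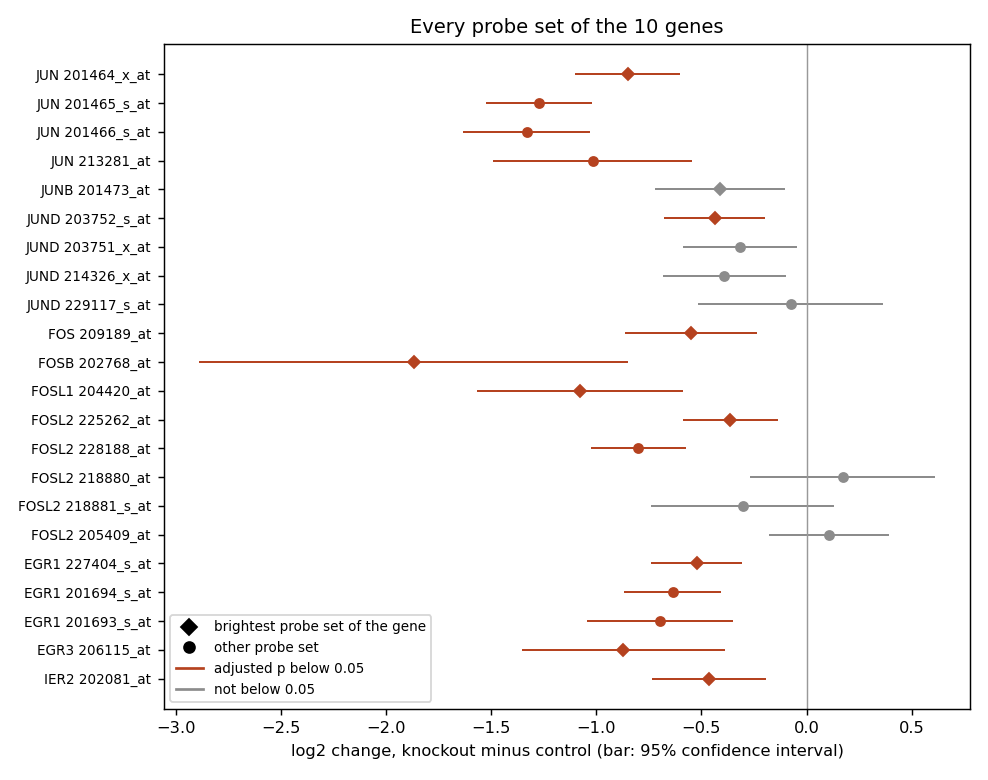
Log2 difference, knockout minus control (horizontal axis), with 95% confidence intervals, of all 22 probe sets of the 10 genes; diamonds mark the brightest probe set of a gene and the darker red marks an adjusted p below 0.05 over all probe sets. All 4 JUN and all 3 EGR1 probe sets are red, while JUND has 1 of 4 and FOSL2 has 2 of 5.

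The stretch of DNA just before the start of a gene can hold some of the sites through which signals switch it on. RefSeq promoter sequences of build GRCh38.p14 were used for 8 of the 10 genes (FOS, FOSB, FOSL2, JUN, JUNB, JUND, EGR1 and IER2). FOSL1 had no entry used here, and EGR3 was left out by a rule on its chromosome. The 250 bases before each start were searched on both strands for 6 motifs: TGACG, the core of the cAMP response element that CREB and ATF factors bind; the full element TGACGTCA, which contains that core; the AP-1 site TGANTCA; the EGR site GCGNGGGCG; TATAAA; and the CArG box of serum response factor. The motifs were chosen after the sequences had been read, so setting their counts beside the shares of all genes is no test. TGACG occurred before all 8 genes, and before 21.7% of 27305 genes in the same table. The full element occurred before JUND alone (1.77% of all genes). The CArG box occurred before EGR1 alone (1.14% of all genes), at positions -105 to -96 and -83 to -74. The EGR site occurred only before EGR1 itself (8.25%), TATAAA before FOS, FOSB and JUNB (11.1%), and TGANTCA before none of the 8 (6.60%). Only this exact form of the AP-1 site was searched, so the similar letters TGACATCA in the JUN stretch below were not counted. Such matches describe letters in this window and show no binding. Sites outside the window were not searched, so a gene without a match may still carry the motif elsewhere.

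The last 150 bases before the start are shown, 5′ to 3′ on the gene's strand, for JUN, FOS, FOSB, JUND and EGR1, which stand for the JUN, FOS and EGR families and let the shared core be seen. Capitals mark TGACG, or CGTCA where it lies on the other strand, and in EGR1 also the CArG boxes.
JUN (chr1:58784048-58784197, minus strand): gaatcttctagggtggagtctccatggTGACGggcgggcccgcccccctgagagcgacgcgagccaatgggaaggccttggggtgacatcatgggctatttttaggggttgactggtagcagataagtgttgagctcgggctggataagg
FOS (chr14:75278678-75278827, plus strand): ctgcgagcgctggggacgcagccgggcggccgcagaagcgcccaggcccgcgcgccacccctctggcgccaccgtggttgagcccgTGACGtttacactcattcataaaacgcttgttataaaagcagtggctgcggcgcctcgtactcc
FOSB (chr19:45467846-45467995, plus strand): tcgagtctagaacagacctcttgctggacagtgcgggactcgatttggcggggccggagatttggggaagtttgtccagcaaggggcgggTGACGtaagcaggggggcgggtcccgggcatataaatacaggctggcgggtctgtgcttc
JUND (chr19:18281623-18281772, minus strand): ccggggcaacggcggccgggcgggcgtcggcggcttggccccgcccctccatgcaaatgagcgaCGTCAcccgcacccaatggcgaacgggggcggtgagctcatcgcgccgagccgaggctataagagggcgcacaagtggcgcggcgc
EGR1 (chr5:138465329-138465478, plus strand): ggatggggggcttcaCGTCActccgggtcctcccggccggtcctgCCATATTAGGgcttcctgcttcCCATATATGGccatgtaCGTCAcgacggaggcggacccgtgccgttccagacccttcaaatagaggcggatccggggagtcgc

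**Figure D4:**
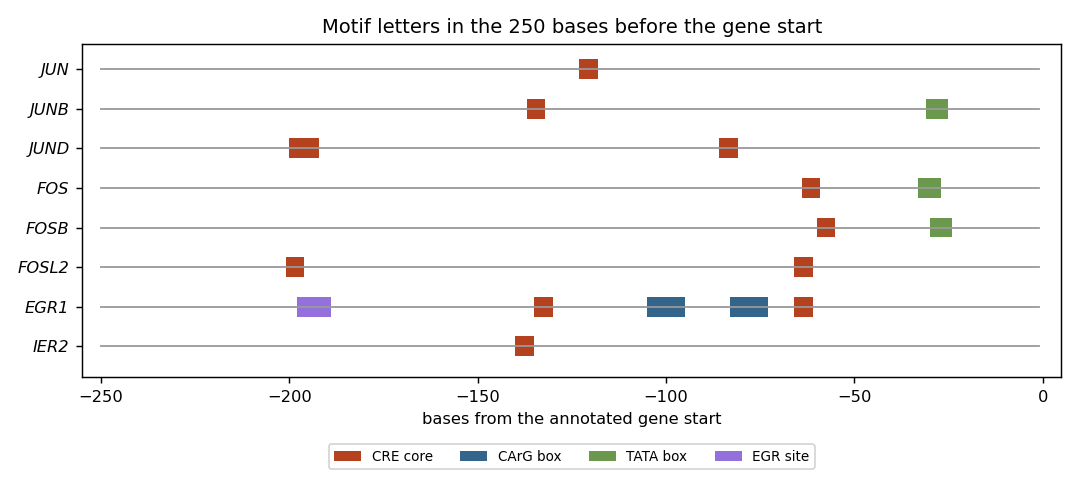
Positions of motif letters, in bases from the annotated gene start (horizontal axis), in the 250 bases before 8 of the genes; boxes are matches on either strand. Each gene carries at least 1 TGACG core, FOS at -64 to -60 and FOSB at -60 to -56. Within this window CArG boxes lie before EGR1 only.

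Of 21 measured immediate early genes outside the 10, 11 fell, 2 rose and 8 did not pass the test, with a median of -0.43, beside 11.5% of all genes that fell and 12.4% that rose. ATF3, a stress-induced bZIP (basic leucine zipper) factor, read 8.47 and 8.75 in knockout cells, against 11.39 and 11.45 in control cells, and was 7.00-fold lower (log2 -2.81, SE 0.12). Its size depended on the probe set: on the gene-specific one the difference was -0.70 (adjusted p = 0.0044), and as the mean over probe sets it was -2.13. MAFF, a small MAF protein, fell by 2.66 (SE 0.16), PHLDA1, a growth regulator, fell by 1.60 (SE 0.09), and the small GTPase RHOB fell by 1.51 (SE 0.08; -0.76 as the mean over probe sets). The kinase SGK1 (0.82, SE 0.08) and MYC (0.49, SE 0.09) rose, though MYC lost its call under reference gene scaling (0.24, adjusted p = 0.085). SGK1 had an adjusted p of 0.053 without knockout 1 and 0.060 without knockout 2. MYC had 0.074 without control 2, 0.13 without knockout 1 and 0.15 without knockout 2. The nuclear receptor NR4A1 read 7.28 and 7.92 in knockout cells and 7.26 and 7.35 in control cells, and the matricellular gene CCN1 10.79 and 11.25 against 10.26 and 10.59; neither passed the test (adjusted p = 0.41 and 0.083).

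Among 12 measured bZIP factors that pair with AP-1 proteins or share their sites, 5 fell and 2 rose, with a median of -0.18; ATF3 and MAFF belong to this list too. MAFG fell by 1.58 (SE 0.08) and ATF2, a JUN partner at cAMP response elements, fell by 0.92 (SE 0.12; -0.56 as the mean over probe sets). JDP2, which forms repressive dimers with JUN, rose by 0.92 (SE 0.13), at 6.93 and 7.09 in knockout cells against 6.24 and 5.94 in control cells, or by 0.49 as the mean over probe sets. ATF7, a relative of ATF2, rose by 0.40 (SE 0.08), but did not pass as the mean over probe sets (0.16, adjusted p = 0.20), under reference gene scaling (0.15, adjusted p = 0.19) or on any 3 arrays (adjusted p 0.059 without control 1, 0.10 without control 2, 0.13 without knockout 1 and 0.18 without knockout 2). Without knockout 1 or knockout 2, ATF2 (0.064 and 0.084) and JDP2 (0.074 and 0.096) lost their calls. The corepressors NAB1 and NAB2, which bind EGR proteins and are themselves induced by them, fell by 1.04 (SE 0.08) and 0.69 (SE 0.11). As the mean over probe sets NAB1 gave -0.60. NAB2 lost its call without knockout 1 (adjusted p = 0.12) or knockout 2 (0.11). SP1, which binds GC-rich sites near those of EGR1, fell by 0.31 (SE 0.08, adjusted p = 0.049), but did not pass as the mean over probe sets (-0.23, adjusted p = 0.14) or on any 3 arrays (0.14 without control 1, 0.081 without control 2, 0.22 without knockout 1 and 0.21 without knockout 2).

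**Figure D5:**
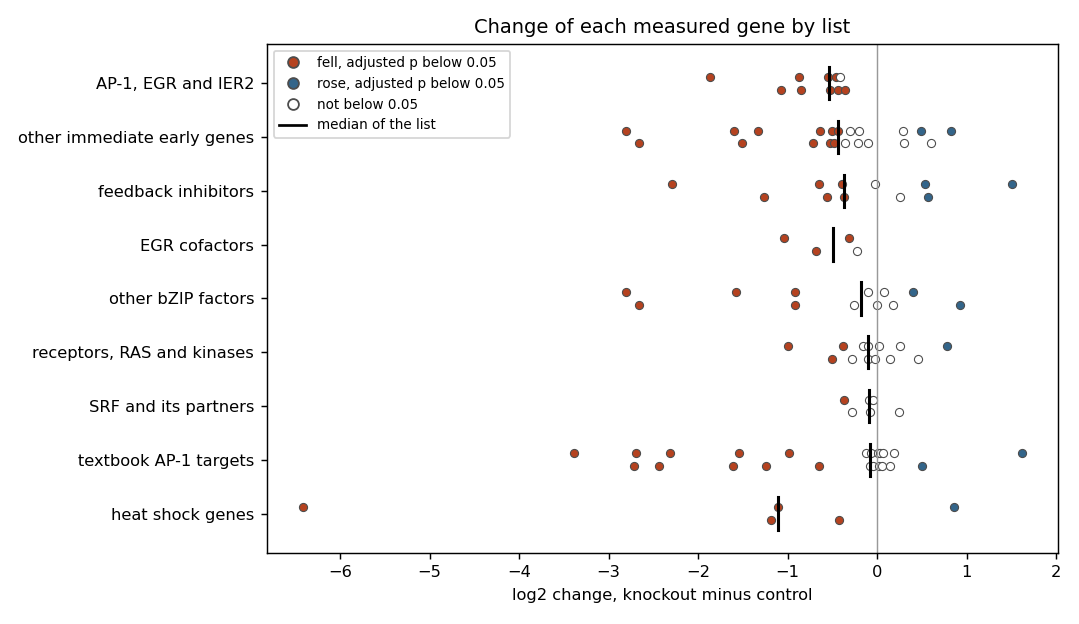
Log2 difference, knockout minus control (horizontal axis), of each measured gene in 9 lists; filled points passed the test at an adjusted p below 0.05 and black lines are list medians. The 10 AP-1, EGR and IER2 genes all lie below 0 (median -0.54), while 2 of the other immediate early genes, 3 feedback inhibitors and 2 textbook AP-1 targets rose.

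Upstream of the 10 genes, 3 of 13 measured receptor, RAS and kinase genes fell, 1 rose and 9 did not pass the test, with a median of -0.11, so 4 of 13 were called beside 24.0% of all genes. The receptor EGFR read 8.04 and 8.05 in knockout cells, against 9.22 and 8.86 in control cells, and was 1.99-fold lower (SE 0.13 on the log2 scale), a call lost without knockout 1 (adjusted p = 0.089) or knockout 2 (0.095); as the mean over probe sets the difference was -0.52. HRAS rose by 0.78 (SE 0.13), and the ribosomal S6 kinases RPS6KA2 and RPS6KA3 fell by 0.51 and 0.38 (RPS6KA2 gave -0.93 as the mean over probe sets). None of these 3 passed on any 3 arrays; across these fits the adjusted p of HRAS was 0.054 to 0.093, that of RPS6KA2 0.072 to 0.19 and that of RPS6KA3 0.092 to 0.21. Serum response factor itself, SRF, read 7.33 and 7.56 in knockout cells and 7.63 and 7.36 in control cells, with overlapping groups. Of SRF and 5 partner genes only ELK4 fell (-0.37, SE 0.08), and its gene-specific probe set gave -0.13 (adjusted p = 0.56) and the mean over probe sets -0.10 (adjusted p = 0.49). ELK4 did not pass on any 3 arrays (0.095 without control 1, 0.093 without control 2, 0.11 without knockout 1 and 0.17 without knockout 2).

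Feedback inhibitors of the ERK and stress kinase pathways, many of them induced along with FOS, went both ways: 6 of 11 fell and 3 rose (median -0.37). DUSP1, a phosphatase of stress kinases, read 9.06 and 9.32 in knockout cells, against 11.50 and 11.45 in control cells, and was 4.88-fold lower (log2 -2.29; -1.49 as the mean over probe sets). SPRY4 fell by 1.26 (SE 0.10) and DUSP2 fell by 0.65 (SE 0.17), while SPRY1, another Sprouty inhibitor, rose by 1.50 (SE 0.08), at 7.96 and 8.00 in knockout cells against 6.50 and 6.46 in control cells. DUSP4 (0.57, SE 0.08) and SPRY2 (0.53, SE 0.11) also rose. On 3 arrays DUSP2 (adjusted p 0.078 to 0.22) and SPRY2 (0.052 to 0.16) never passed, and DUSP2 fell by 0.43 without knockout 1; DUSP4 lost its call without control 2 (0.052), knockout 1 (0.094) or knockout 2 (0.089), and SPRY4 without knockout 1 (0.051) or knockout 2 (0.050). SPRY2 was also lost under reference gene scaling (0.28, adjusted p = 0.086).

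Of 23 measured textbook targets of AP-1, 10 fell, 2 rose and 11 did not pass the test, with a median of -0.08. The collagenase MMP1, a standard AP-1 target, read 9.20 and 9.17 in knockout cells, against 12.72 and 12.42 in control cells, and was 10.5-fold lower. HBEGF, a ligand of EGFR, read 7.51 and 7.91 in knockout cells, against 10.46 and 10.40 in control cells, and was 6.59-fold lower (log2 -2.72; -1.37 as the mean over probe sets). MMP10, a stromelysin, read 3.23 and 3.20 in knockout cells, against 6.11 and 5.71 in control cells, and fell by 2.70 (SE 0.14); its knockout values lie below the median of all probe sets and were not shown to exceed background. CXCL8, which encodes a neutrophil chemokine, fell by 2.43 (SE 0.12). The matrilysin MMP7 rose by 1.62 (SE 0.08) and the hyaluronan receptor CD44 by 0.50 (SE 0.09). CD44 did not pass as the mean over probe sets (0.25, adjusted p = 0.059) or under reference gene scaling (0.25, adjusted p = 0.062), nor on 3 arrays without control 2 (0.069), knockout 1 (0.13) or knockout 2 (0.11). Whether any of these changes follow from AP-1 was not tested.

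Heat shock genes, which respond to stress on cells in culture, also moved with the groups. Of 5 measured, 4 fell and HSPB1 rose by 0.86 (SE 0.11). HSPA6, a chaperone induced by severe stress, read 3.95 and 4.47 in knockout cells, against 10.83 and 10.42 in control cells; its knockout values too lie below the median of all probe sets. BAG3 fell by 1.19 (SE 0.09) and DNAJB1 fell by 1.11 (SE 0.08); without knockout 1 or knockout 2 their adjusted p was 0.052 and 0.050, and that of HSPB1 0.076 and 0.089. The part of this difference in the falls of the 10 immediate early genes was not tested.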

How the data were processed

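RNA of 2 PRMT6-knockout and 2 control arrays was analysed from 1 table of log2 intensities deposited by the authors, made with RMA and the affy package per the submitters' processing notes, with no version given. RMA removes background, quantile-normalizes arrays and summarizes probe sets, so differences are relative to other transcripts and dim probe sets are compressed. Values of 1.64 to 14.16 show the log2 scale. Depth has no meaning for arrays; their number limits precision. The platform annotation gave 1 symbol to 41091 of 54613 probe sets, several to 1801 and none to 11721; symbols of 41037 were updated through Entrez numbers to RefSeq (GRCh38.p14) and 54 were kept. The brightest of a gene's probe sets (highest mean over 4 arrays) stood for each of 19775 genes.

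The test was limma 3.58.1 under R 4.3.3 (lmFit and eBayes without covariates) on all genes, with Benjamini-Hochberg adjustment over all genes; 2 residual degrees of freedom were joined by a prior of 3.27. Python 3.11.15 made summaries. The fit was tested on simulated data. Differences are knockout minus control with the moderated standard error (SE).

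Tried besides were averaged probe sets per gene, its gene-specific probe set, brighter genes only, an intensity trend, reference gene scaling, every probe set, a replicate block, and leaving out each array. The members and lists were chosen with earlier results of these data known. Named were PRMT6, the 10 genes, up to 4 called genes with the largest change per list (2 where none was called), the 3 genes most like the called member with the largest change, and, after values were seen, genes spelled out in small counts and the examples EPCAM, KRT18, NR4A1, CCN1 and SRF.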

Additional observations from a re-analysis of the deposited data

How the results depend on the processing

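All of the 10 genes that were tested kept a negative difference under each of the 11 alternatives. For most alternatives this was fixed in advance. Groups did not overlap, so leaving out 1 array could not turn a sign. The intensity trend, replicate block, brightness filter and test of every probe set kept the same differences. Reference gene scaling lowered every gene alike. Only the mean of probe sets and the gene-specific probe sets could have turned a sign, and only for some genes. FOS, FOSB, FOSL1, JUNB, EGR3 and IER2 have 1 probe set each, so neither setting could change their differences. The gene-specific setting changed the difference of JUN alone, to -1.02. Under the alternatives that kept all 4 arrays, 8 to 10 of the 10 genes fell. The count was 10 with the intensity trend and under reference gene scaling, where 2696 and 7280 of all 19775 genes fell. With the brightness filter 9 of the 9 bright enough fell (EGR3 was not), beside 2569 of 9887 genes. The count was 9 with the mean of probe sets (FOSL2 not called), with gene-specific probe sets and with every probe set tested (JUNB not called in either). With the replicate block it was 8 (FOSL2 and JUNB not called). EGR1 and JUND have no gene-specific probe set, so that setting used their brightest one again. With 1 array left out the count was 1 to 3. Of all genes, 8513 were called under reference gene scaling and 508 to 2629 with 1 array left out, beside 4740. The labels number replicates in both groups but give no shared culture or batch, and the correlation across genes of the replicate differences in the 2 groups was 0.05, so the numbers were not taken as pairs; the replicate block called 3972 genes. For the 10 genes, 74 of 109 alternative values kept their side of the threshold, 31 lost a call and 4 gained one, all 4 for JUNB. For the other named genes 446 of 575 kept it, 124 lost a call, 5 gained one (4 for LYZ and 1 for PTPRC) and none of the calls turned in direction. No detection calls were used, so dim probe sets such as those of EGR3 and, in knockout cells, MMP10, HSPA6, DET1, FGF21 and SERPINB8 have no background limit.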

Other observations

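Stability of JUN and FOS proteins is set by ubiquitin ligases, whose transcripts were measured for 6 of the listed genes. DET1 is a part of the COP1 ligase that acts on JUN. It read 4.90 and 5.18 in knockout cells, against 6.24 and 6.13 in control cells. It fell by 1.15 (SE 0.12, adjusted p = 0.0033 in limma), and as the mean over probe sets the difference was -0.58. Its knockout values lie near the median of all probe sets (5.01 to 5.02) and were not shown to exceed background. Its adjusted p without knockout 1 was 0.051. FBXW7, a substrate receptor for phosphorylated JUN, fell by 0.49 (SE 0.08), but did not pass as the mean over probe sets (-0.10, adjusted p = 0.43), nor on 3 arrays without control 2 (0.065), knockout 1 (0.11) or knockout 2 (0.11). CUL1, the scaffold of FBXW7 ligases, rose by 0.41 (SE 0.08), but its gene-specific probe set gave 0.10 (adjusted p = 0.50) and the mean over probe sets 0.26 (adjusted p = 0.073), and it did not pass with reference gene scaling (0.16, adjusted p = 0.15) or on any 3 arrays (0.053 to 0.15). The other 3 did not pass the test.

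Across the 4 arrays, the genes with the pattern closest to that of FOSB were FGF21, SERPINB8 and ETS1, with root mean square distances of 0.14, 0.23 and 0.27 between values centred on each gene's mean. FGF21, a secreted hormone, read 4.54 and 5.46 in knockout cells, against 6.75 and 6.80 in control cells, and so was also higher on knockout 2 than on knockout 1. It fell by 1.78 (SE 0.29, adjusted p = 0.012), but was not called without control 1 (0.083) or control 2 (0.094). ETS1, a transcription factor that cooperates with AP-1 at many promoters, read 5.86 and 6.38 in knockout cells, against 8.03 and 8.05 in control cells. SERPINB8, a protease inhibitor, read 4.82 and 5.52 in knockout cells, against 7.25 and 7.21 in control cells. The knockout values of FGF21 and SERPINB8 lie near the median of all probe sets (5.01 to 5.02) and were not shown to exceed background. FGF21, SERPINB8 and ETS1 were picked for their likeness to FOSB, over 4 arrays that share the group difference.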
